A study of Caenorhabditis elegans with 36 samples.

Results

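The genes of the mitochondrial genome of Caenorhabditis elegans were followed through 36 RNA-seq libraries of whole worms. They were taken as every named gene that the deposited tables place on the chromosome MtDNA, which gave 29 genes of 24931 listed in all: 12 that encode proteins, 2 that encode rRNAs and 15 that encode tRNAs. The animals were mbl-1(tm1563) mutants, which carry a mutant allele of the gene for the muscleblind splicing factor, and N2, the wild type. Transgenic animals made either a GFP transcript with 123 CUG repeats in its 3' UTR (123CUG) or the same transcript with 0 repeats (0CUG), both from the myo-3 promoter, which drives expression in muscle of the body wall. For either construct there were 2 strains, with the alleles mgIs64 (123CUG strain 1), mgIs84 (123CUG strain 2), mgIs65 (0CUG strain 1) and mgIs85 (0CUG strain 2). Every genotype was labelled 2-day adult or L4, the last larval stage, and each of the 12 groups had 3 libraries. All animals were fed HT115 bacteria with an empty RNAi vector. The series concerns the effect of MBL-1 and of toxic repeats on mitochondrial morphology.

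The mitochondrial genome is a small circle present in many copies per cell. In the worm all of its genes lie on 1 strand, and they supply core subunits of respiratory complexes I, III and IV and of the ATP synthase, along with the rRNAs and tRNAs that translate them inside the organelle. The remaining subunits of those complexes, all of complex II, the polymerase that transcribes the circle and the proteins of the mitochondrial ribosome come from nuclear genes. The worm's mitochondrial DNA is known to multiply as the germ line grows; DNA copies were not measured here.

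Libraries held between 25239900 and 47903800 reads on named genes. The 12 N2 and mbl-1 libraries all looked adult whatever their label: yolk protein genes summed to 100786 to 183512 CPM (read counts scaled to 1 common library size) in them and to 60299 to 171046 CPM in transgenic adults, against 1622 to 7933 CPM in transgenic L4 animals. Differences between the mbl-1 or N2 libraries of the 2 labels are therefore given under the labels, without being read as a change from larva to adult. Nuclear rRNA genes took 0.295% of reads in 123CUG strain 2 2-day adult replicate 2 and 0.208% in 0CUG strain 1 2-day adult replicate 2, against 1.06% to 2.27% in the other 10 transgenic adult libraries. Oocyte markers summed to 6621 CPM in the third mbl-1 2-day adult library, against 1972 and 3346 CPM in its group, and to 2639.8 CPM in the third N2 2-day adult library, against 6983 and 5603 CPM, so these 2 libraries stood apart as well. Reads on the mbl-1 gene itself in 2-day adults came to 14.3, 13.9 and 10.6 CPM in mbl-1 worms and 15.4, 17.4 and 33.2 CPM in N2 worms. Under the label L4 they came to 13.4, 9.63 and 14.6 CPM in mbl-1 worms and 13.4, 13.7 and 14.3 CPM in N2 worms. Every mbl-1 library was below every N2 library in 2-day adults, whereas the genotypes overlapped under the label L4. These counts cover the whole gene, so they do not check the allele. Where leaving out the pair lowest in nuclear rRNA or the third mbl-1 and N2 2-day adult libraries changed a call, the value without them is given beside the result. The labels do not say whether the 3 libraries of a group came from separate cultures, so p-values measure only the spread between libraries. Levels below are CPM on 1 common scale over the 36 libraries, and an adjusted p is that of edgeR's quasi-likelihood test, corrected by the Benjamini-Hochberg method for every gene in the fit. A gene is said to have risen or fallen where its adjusted p was under 0.05, and log2 fold changes are given ± SE.

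The 12 mRNAs and 2 rRNAs passed the filter on low counts in every comparison, and none of the tRNAs did. The 15 tRNA genes together held 0 to 36 reads per library, and the highest value of any 1 tRNA gene was 19 reads, so no statement on tRNA levels is made. Per kilobase of gene length, the ATP synthase subunit ATP6 (MtDNA, 2634 to 3235, build WBcel235) had the highest mean level over the 36 libraries, 3141 ± 363 CPM per kb (SD, n = 36). The complex IV subunits followed, with 3044 ± 380.4 for COX2 (9649 to 10348), 2665 ± 730.1 for COX3 (5678 to 6449) and 2244 ± 271 CPM per kb for COX1 (7827 to 9428), the catalytic subunit. CYTB (4504 to 5621), the cytochrome b subunit of complex III, averaged 1802 ± 367 CPM per kb. The complex I subunits were lower. ND3 (11356 to 11691) averaged 1071 ± 319, ND1 (1763 to 2635) 957 ± 129, ND5 (11691 to 13272) 637 ± 117 and ND4 (6506 to 7808) 477 ± 78.2 CPM per kb. ND6 (113 to 549) averaged 288 ± 125, ND2 (3389 to 4269) 159 ± 84.5 and ND4L (549 to 783) 19.7 ± 17.3 CPM per kb, the lowest of the 14 genes. The annotated ND4L begins on the last base of ND6, ND5 on the last base of ND3, and ATP6 within the end of ND1, so reads across these borders cannot be assigned by position alone. The rRNA genes MTCE.7 (898 to 1593, 696 bases) and MTCE.33 (10403 to 11354, 952 bases) averaged only 63.8 ± 28.2 and 45.1 ± 24.7 CPM per kb. Of the 13 neighbouring pairs in this order, 8 were separated by more than the larger of their SDs. The other 5 were ATP6 and COX2, COX2 and COX3, COX3 and COX1, ND3 and ND1, and the 2 rRNAs. The sources used here do not say whether libraries were selected for polyadenylated RNA or depleted of rRNA, so the low rRNA values describe what the libraries captured.

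**Figure D1:**
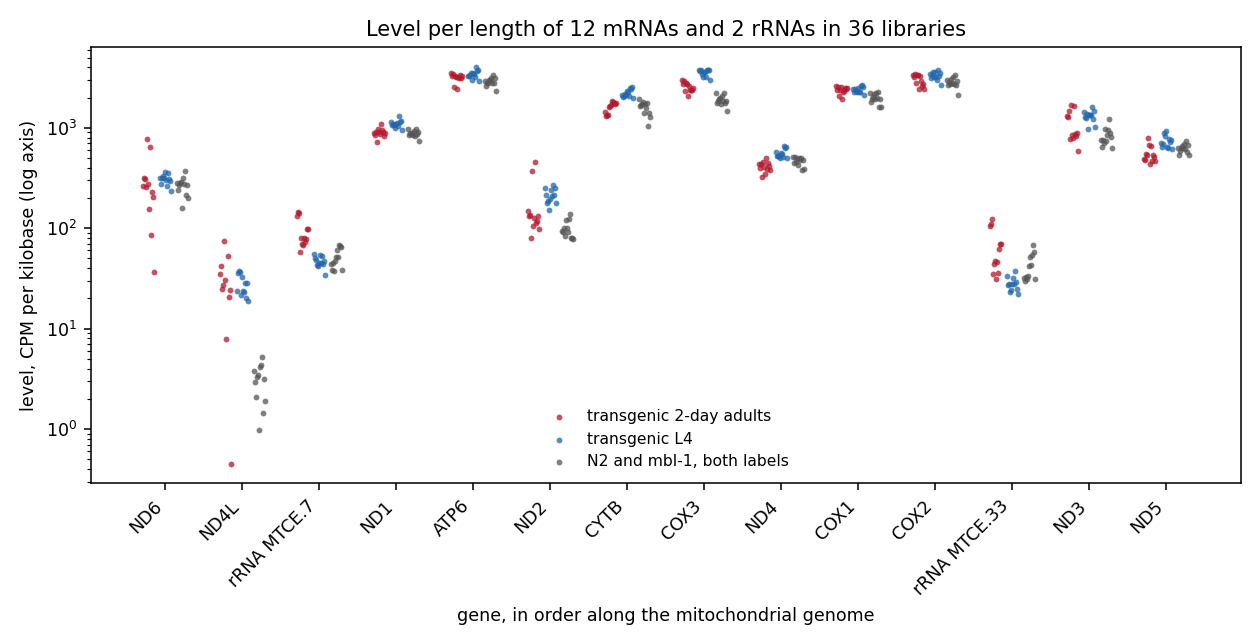
Level of each mitochondrial mRNA and rRNA per kilobase of gene length (log axis) in every library, with genes in their order along the mitochondrial genome. The 0CUG strain 1 2-day adult library without any ND4L read is not drawn. ATP6 and the COX genes sit at the top, and ND4L and the rRNAs at the bottom, in all 3 sets of libraries.

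ND4L and COX3 stood higher in transgenic L4 libraries than in N2 and mbl-1. ND4L, a small membrane subunit of complex I, lay between 4.39 and 8.88 CPM (median 6.15) in transgenic L4 libraries and between 0.230 and 1.22 CPM (median 0.759) in the 12 N2 and mbl-1 libraries. COX3 lay between 2285 and 2919 CPM (median 2808) in transgenic L4 libraries and between 1612 and 2313 CPM (median 1958) in transgenic adults, against between 1126 and 1709.8 CPM (median 1433) in N2 and mbl-1. The ND4L range of the transgenic L4 libraries was clear of that of N2 and mbl-1, whereas the COX3 ranges of transgenic adults and of N2 and mbl-1 overlapped at their ends. No table holds transgenic and N2 libraries together, and the N2 and mbl-1 libraries all looked adult. Strain, stage and set of libraries cannot be told apart, so no test was made. In transgenic adults ND4L spread from 0 to 17.4 CPM, across the range of N2 and mbl-1. ND2 and CYTB were likewise higher in transgenic L4 libraries (134 to 239 and 2203 to 2851 CPM) than in N2 and mbl-1 (68.5 to 121 and 1163 to 2170.2 CPM), without overlap. Transgenic adults did overlap N2 and mbl-1, at 71.0 to 402 CPM for ND2 and 1449 to 2059.7 CPM for CYTB. These genes were singled out after their values were seen.

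The 12 mRNAs together held 0.962% to 2.15% of a library's reads. In transgenic animals the share was lower in 2-day adults, 1.46% ± 0.157, than in L4 animals, 1.80% ± 0.152 (SD, n = 12 each), a ratio of 0.805 (two-sided permutation test with 100000 resamples, p = 3e-05). In whole worms fewer cells of a type and less RNA per cell cannot be told apart. The adult libraries of the strains read 1.47%, 1.34% and 1.48% in 123CUG strain 1, 1.22%, 1.67% and 1.58% in 123CUG strain 2, 1.33%, 1.77% and 1.5% in 0CUG strain 1 and 1.41%, 1.35% and 1.35% in 0CUG strain 2. The L4 libraries read 1.70%, 1.74% and 1.78% in 123CUG strain 1, 1.77%, 1.71% and 1.92% in 123CUG strain 2, 1.76%, 1.70% and 2.15% in 0CUG strain 1 and 1.92%, 1.91% and 1.57% in 0CUG strain 2. Every strain had a lower mean as adults, although 3 adult libraries, among them the pair lowest in nuclear rRNA, reached into the L4 range. Without that pair the log2 difference was -0.36 (permutation p = 2e-05).

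No difference in the share was found between 123CUG and 0CUG, and for mbl-1 against N2 the libraries were too few for the test to decide. At the adult stage the share was 1.46% ± 0.162 in 123CUG and 1.45% ± 0.166 in 0CUG (SD, n = 6 each; two-sided exact permutation test, p = 0.959). L4 animals had 1.77% ± 0.0796 in 123CUG and 1.83% ± 0.205 in 0CUG (n = 6 each, exact p = 0.61). The 2-day adult libraries read 0.962%, 1.18% and 0.990% in mbl-1 and 1.19%, 1.31% and 1.10% in N2 (exact p = 0.2), and those labelled L4 read 1.38%, 1.27% and 1.38% in mbl-1 and 1.42%, 1.14% and 1.23% in N2 (exact p = 0.6). With 3 libraries against 3 the test cannot give a p under 0.1, so no conclusion on mbl-1 is drawn from it.

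**Figure D2:**
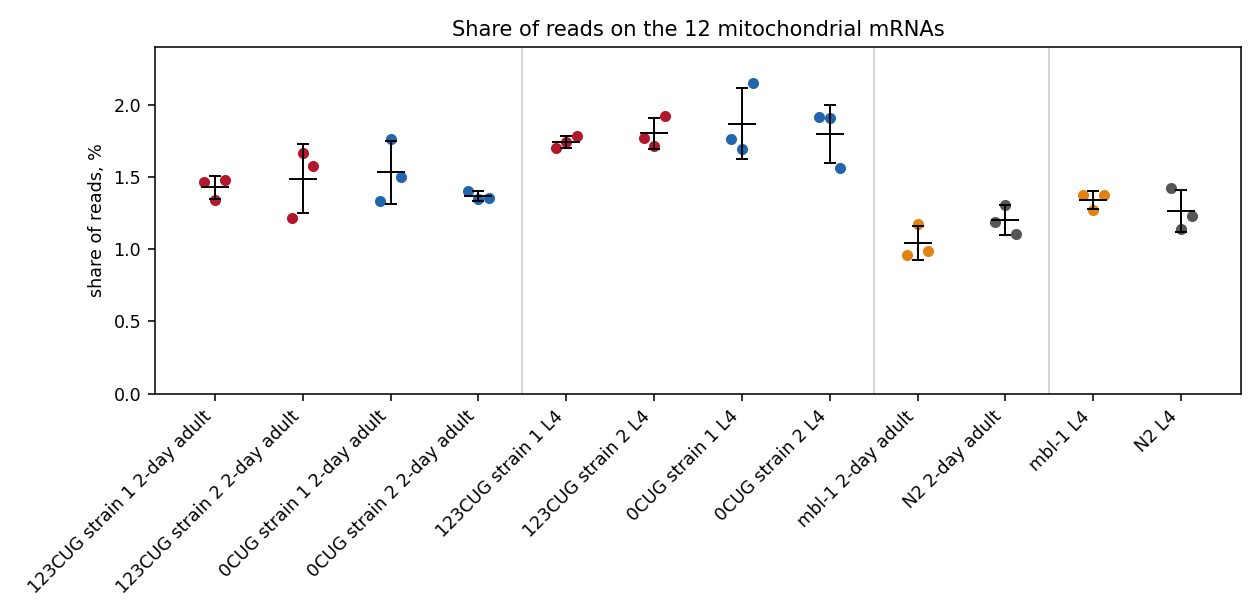
Share of reads on the 12 mitochondrial mRNAs in each library (points, %), with the mean ± SD of the 3 libraries of a group. The 4 transgenic L4 groups lie above the 4 transgenic adult groups in their means, and N2 and mbl-1 lie lower than the transgenic L4 groups.

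Between the last larval stage and the second day of adulthood worms begin to make oocytes, and oocyte markers of the transgenic animals summed to 2429.6 to 3814 CPM in their adults against 28.2 to 96.1 CPM at L4. All 12 mitochondrial mRNAs had a negative estimate in adults, 6 of them fell and 0 rose, while both rRNAs rose. Across the 17248 genes tested, 50.4% fell and 37% rose, so 6 of 12 is close to the share of all genes that fell. The median log2 change was -0.29 over the 12 mRNAs and -0.46 over all genes tested.

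The estimates spread widely among the mRNAs, and 4 of them from 3 complexes stood together at the lower end. CYTB fell to 1794 ± 223 CPM in 2-day adults, against 2482 ± 215 CPM in L4 animals (SD, n = 12 each; log2 -0.48 ± 0.0512, adjusted p = 2.52e-09). The CYTB ranges of the 2 stages did not overlap, with adults at 1449 to 2059.7 CPM and L4 animals at 2203 to 2851 CPM. COX3 averaged 1984 ± 214 CPM in 2-day adults against 2731 ± 214 CPM in L4 animals (log2 -0.47 ± 0.0532, adjusted p = 7.77e-09). The other complex IV genes moved little: COX2 fell by 0.15 on the log2 scale (SE 0.0586, adjusted p = 0.0179), and COX1 lay at 3081 to 4142 CPM in 2-day adults against 3411 to 4230.2 CPM in L4 animals (log2 -0.01 ± 0.0520, adjusted p = 0.804). Of the complex I subunits, ND4 averaged 535 ± 62.7 CPM in 2-day adults against 726 ± 72.8 CPM in L4 animals (log2 -0.44 ± 0.0660, adjusted p = 9.1e-07). ND5 averaged 870.0 ± 165 CPM in 2-day adults against 1161 ± 165 CPM in L4 animals (log2 -0.42 ± 0.0683, adjusted p = 3.29e-06), and ND1 781 ± 77.7 CPM in 2-day adults against 958 ± 77.4 CPM in L4 animals (log2 -0.30 ± 0.0560, adjusted p = 2.53e-05). ND4 and ND5, which sit in the membrane arm of complex I, and CYTB and COX3 thus fell by similar amounts, between -0.48 and -0.42, and each of the 4 fell in each of the 4 strains. ND1 fell in every strain as well, with estimates of -0.33 in 123CUG strain 1, -0.28 in 123CUG strain 2, -0.26 in 0CUG strain 1 and -0.31 in 0CUG strain 2. ATP6 did not pass (log2 -0.12 ± 0.0598, adjusted p = 0.0703), nor did ND3 (log2 -0.29 ± 0.136, adjusted p = 0.0511), ND2 (log2 -0.38 ± 0.249, adjusted p = 0.164), ND6 (log2 -0.14 ± 0.313, adjusted p = 0.688) or ND4L (log2 -0.06 ± 0.481, adjusted p = 0.918). Without the pair of libraries lowest in nuclear rRNA, ATP6 (-0.19, adjusted p = 0.00631), ND3 (-0.55, 5.17e-07), ND2 (-0.90, 3.67e-10) and ND6 (-0.68, 0.00947) also fell, which makes 10 of 12, in a fit where 50.3% of all genes fell; the 8 genes called with the pair were called without it too. DESeq2 and RLE scaling called ATP6 (0.00669 and 0.0121) and ND3 (0.0235 and 0.0231) as well. Library sizes without mitochondrial and rRNA genes also called ATP6 (0.0218) and ND3 (0.0346). Without a filter on low counts COX2 was lost (0.0621), while ND3 (-0.25, adjusted p = 0.000115) and ND2 (-0.32, 1.22e-06) were called. Leaving out single libraries called ATP6 in 12 of 24 fits (without either library of the pair, or any L4 library other than replicate 3 of the 123CUG strains) and ND3 in 8 (without either library of the pair, L4 replicate 2 of any strain but 0CUG strain 2, L4 replicate 1 of either 0CUG strain, or L4 replicate 3 of 0CUG strain 2). It called ND2 without either library of the pair (adjusted p = 0.0108 and 0.00964), and lost COX2 without 123CUG strain 2 2-day adult replicate 1 (0.0602) or 0CUG strain 1 2-day adult replicate 1 (0.0589).

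**Figure D3:**
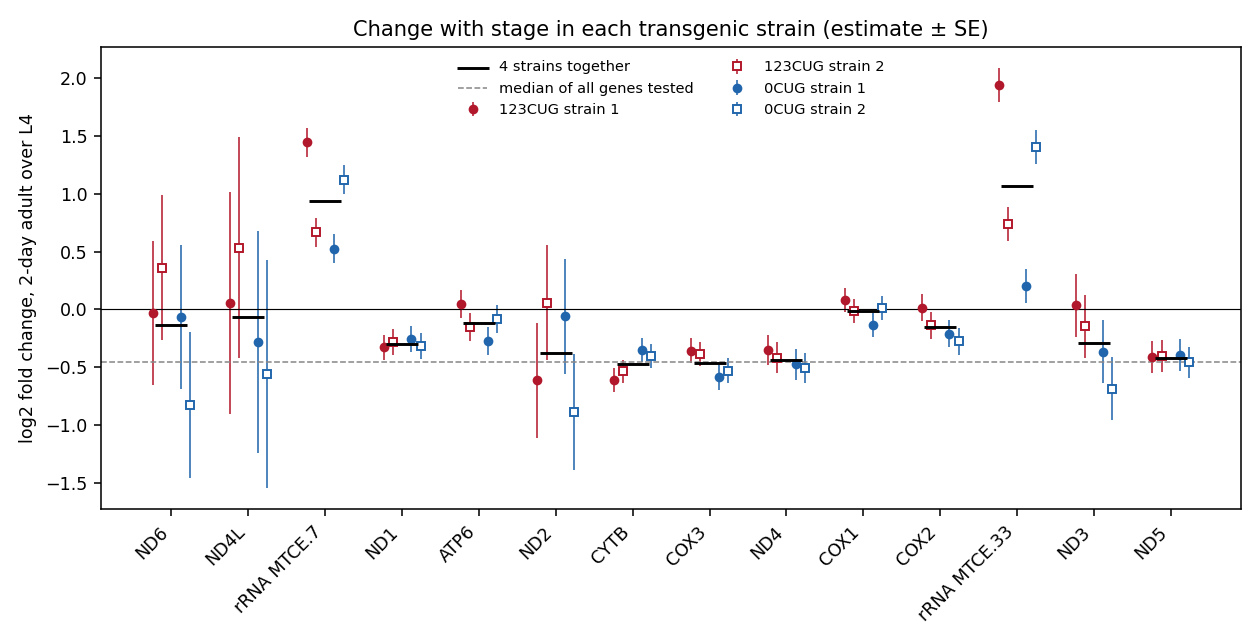
Log2 fold change of each gene, 2-day adult over L4, in the 4 transgenic strains (points, estimate ± SE) and in the 4 together (short horizontal bars), with the median of all 17248 genes tested as a dashed line. CYTB, COX3, ND4, ND5 and ND1 lie under 0 in each strain, COX1 lies near 0, and both rRNAs lie above 0 with the strains well apart.

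The nuclear genes of the same machinery fell together with stage, with medians under that of all genes. Within single strains 75% (123CUG strain 1), 75.7% (123CUG strain 2), 77.7% (0CUG strain 1) and 72.5% (0CUG strain 2) of all genes were called between stages. Of the nuclear complex I subunits 13 of 14 fell and 1 rose, with a median log2 change of -0.73. In complex III 6 of 7 fell (median -0.87), in complex IV 7 of 7 fell (-0.78) and in the ATP synthase 8 of 10 fell (-0.77). In complex II, which has no mitochondrially encoded subunit, 4 of 4 fell (median -0.73), sdha-1 most, to 63.6 ± 15 CPM in adults, against 228 ± 17.3 CPM at L4. Paralogous subunits moved in opposite directions. The ATP synthase subunit genes asb-1 and asb-2 changed by log2 2.25 ± 0.0481 and log2 -2.18 ± 0.0598 (adjusted p = 4.5e-24 and 6.59e-22), with asb-1 at 351 ± 62.1 CPM in adults and 73.6 ± 10.3 CPM at L4. The complex III core genes ucr-2.3 and ucr-2.2 changed by log2 3.63 ± 0.0634 and log2 -2.12 ± 0.0670 (8.75e-26 and 1.11e-20), and the complex I genes nduf-2.2 and gas-1 by log2 3.31 ± 0.0715 and log2 -2.38 ± 0.0613 (5.27e-24 and 1.82e-22). Reads on the 12 mitochondrial mRNAs divided by reads on the listed nuclear subunits of the same complexes gave 1.08 to 1.53 in adults and 0.759 to 1.22 at L4.

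Genes that copy and express the mitochondrial genome went mostly the other way: 9 of 14 rose and 5 fell. hmg-5, the packaging factor of mitochondrial DNA related to TFAM, rose to 121 ± 19.3 CPM in adults, against 18.2 ± 4.24 CPM at L4 (log2 2.75 ± 0.0767, adjusted p = 9.26e-22). polg-1, the mitochondrial DNA polymerase, rose to 25.6 ± 3.58 CPM in adults, against 8.91 ± 1.53 CPM at L4 (log2 1.52 ± 0.0850, adjusted p = 3.02e-15), and rpom-1, the mitochondrial RNA polymerase, reached 46.5 ± 7.21 CPM, against 31.4 ± 3.17 CPM (log2 0.56 ± 0.0614, 4.1e-09). tsfm-1, named for a mitochondrial translation elongation factor, fell most among those at 5 CPM or more, to 43.6 ± 5.04 CPM in adults, against 107 ± 8.78 CPM at L4. twnk-1 fell further, but at very low levels, with 0.0354 ± 0.0679 CPM in adults and 0.630 ± 0.407 CPM at L4 (log2 -4.22 ± 0.776, adjusted p = 1.7e-05). Of the mitochondrial ribosomal protein genes 22 of 69 rose and 28 fell. Markers of other tissues moved as well: oocyte genes rose in 10 of 10 cases, while muscle (10 of 10), neuron (9 of 9) and intestine genes (6 of 6) fell. Their summed levels in adults and L4 animals were 1209 to 2639 and 6259.8 to 11104 CPM for muscle, and 1003 to 3225 and 6085 to 9504 CPM for intestine, with no marker at 0; their part in the mitochondrial values was not tested.

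Both mitochondrial rRNAs rose in adults, against the direction of the mRNAs, and the size of the rise depended on the strain. In 2-day adults MTCE.33 stood at 99.4, 105 and 117 CPM in 123CUG strain 1, 33.2, 41.8 and 44.9 CPM in 123CUG strain 2, 29.6, 43.8 and 33.7 CPM in 0CUG strain 1 and 59.0, 66.2 and 66.3 CPM in 0CUG strain 2. The L4 libraries held 31.6, 25.8 and 26.7 CPM in 123CUG strain 1, 22.1, 23.0 and 26.7 CPM in 123CUG strain 2, 30.6, 26.6 and 35.9 CPM in 0CUG strain 1 and 27.5, 23.8 and 21.2 CPM in 0CUG strain 2. At L4 the strains overlapped, whereas adult 123CUG strain 1 was above every other library of the series. Over the 4 strains the rise of MTCE.33 was log2 1.07 ± 0.0726, adjusted p = 2e-13, with 1.94 in 123CUG strain 1, 0.74 in 123CUG strain 2, 0.20 in 0CUG strain 1 and 1.40 in 0CUG strain 2. The estimate in 0CUG strain 1 did not pass (adjusted p = 0.198). In the other rRNA 123CUG strain 1 was again the highest of the adults and 0CUG strain 2 the next on average. MTCE.7 held 91.6, 102 and 99.1 CPM in 123CUG strain 1, 40.0, 55.0 and 48.9 CPM in 123CUG strain 2, 47.2, 55.0 and 50.2 CPM in 0CUG strain 1 and 54.7, 67.9 and 68.4 CPM in 0CUG strain 2 in adults, and 23.8 to 38.3 CPM in the 12 L4 libraries, which lay entirely lower than the adults. Its rise over the 4 strains was log2 0.94 ± 0.0630, adjusted p = 1.54e-13, and it passed in each strain, with 1.44 in 123CUG strain 1, 0.67 in 123CUG strain 2, 0.53 in 0CUG strain 1 and 1.12 in 0CUG strain 2. The rRNAs together were 0.583% to 1.43% of mitochondrial reads in adults and 0.301% to 0.405% at L4. The L4 library highest in nuclear rRNA, 123CUG strain 1 replicate 1 with 9.96% of reads, lay within the range of the other L4 libraries in MTCE.33 and only just above it in MTCE.7 (38.3 CPM). Among adults nuclear rRNA averaged 1.82% of reads in 123CUG strain 1 and 1.65% in 0CUG strain 2. It averaged 1.23% in 123CUG strain 2 and 0.897% in 0CUG strain 1. Over all transgenic libraries it averaged 1.40% in adults and 2.98% at L4. Whether nuclear rRNA content has a part in the mitochondrial rRNA values was not tested.

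The rRNAs split the strains of a construct from each other. The stage change of MTCE.33 was larger in 123CUG strain 1 than in 123CUG strain 2, by log2 1.20 ± 0.204, adjusted p = 0.000985, and smaller in 0CUG strain 1 than in 0CUG strain 2, by log2 -1.20 ± 0.204, adjusted p = 0.000117. For MTCE.7 these differences were log2 0.78 ± 0.177, adjusted p = 0.0134, and log2 -0.60 ± 0.177, adjusted p = 0.017. No mitochondrial mRNA passed in either test, where 3.78% (123CUG) and 20.1% (0CUG) of all genes did. Summed yolk genes in the adults were 114721 to 128889 CPM in 123CUG strain 1, 96319 to 112491 CPM in 123CUG strain 2, 60299 to 74113 CPM in 0CUG strain 1 and 141813 to 171046 CPM in 0CUG strain 2, and intestine genes 2189.8 to 2412, 1250.0 to 2311, 1003 to 1199 and 2439 to 3225 CPM in the same order. In the yolk and intestine sums 0CUG strain 2 was highest and 0CUG strain 1 lowest. Muscle genes summed to 2290 to 2639, 1209 to 1773, 1665 to 1935 and 1406 to 1807 CPM in the same order. The muscle sum was highest in 123CUG strain 1, without overlap. Oocyte genes summed to 2429.6 to 2715, 2593 to 3407, 3398 to 3814 and 2923 to 3082 CPM, again in this order. Both rRNAs were highest in 123CUG strain 1, and the lowest mean was that of 0CUG strain 1 for MTCE.33 and of 123CUG strain 2 for MTCE.7; the part of tissue makeup was not tested.

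**Figure D4:**
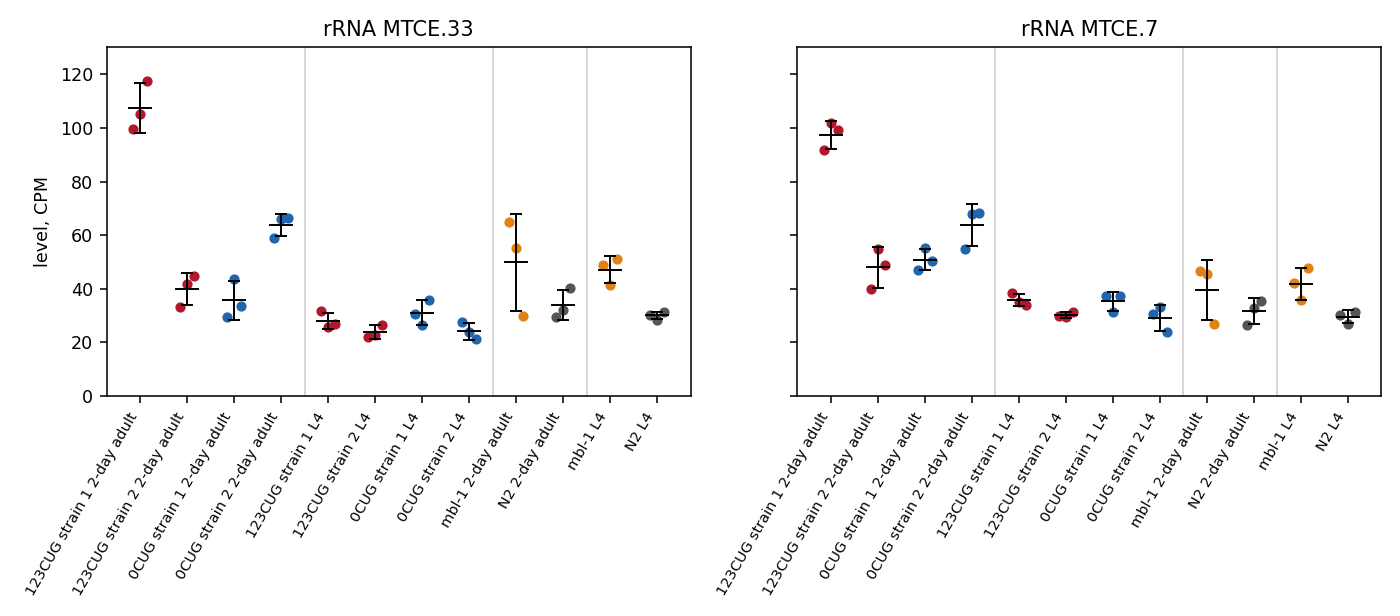
Level of the mitochondrial rRNAs MTCE.33 (left) and MTCE.7 (right) in each library (points, CPM), with the mean ± SD of the 3 libraries of a group. Adult 123CUG strain 1 stands highest in both panels, adult 0CUG strain 2 next, and the mbl-1 libraries labelled L4 lie above those of N2.

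At L4 the toxic repeats went with no called change in the mitochondrial genome. None of the 14 genes passed in 123CUG against 0CUG, where 14.4% of 16210 genes did; 2 had an unadjusted p under 0.05, and DESeq2 called 0 as well. The 2 were ND5 (log2 0.19 ± 0.0709, adjusted p = 0.0872) and ND4L (log2 0.43 ± 0.175, adjusted p = 0.113). ND5 stood at 1104, 1008 and 1081 CPM in 123CUG strain 1, 1402, 1303 and 1473 CPM in 123CUG strain 2, 1021, 990.2 and 1235 CPM in 0CUG strain 1 and 1148, 1183 and 977 CPM in 0CUG strain 2. The 3 libraries of 123CUG strain 2 were above those of every other strain, while 123CUG strain 1 overlapped both 0CUG strains. ND5 passed in 123CUG strain 2 against 0CUG strain 1 (log2 0.40 ± 0.1, adjusted p = 0.0148; 8.78% of all genes called) and was lower in 123CUG strain 1 than in 123CUG strain 2 (log2 -0.33 ± 0.1, adjusted p = 0.0442; 9.63%). It missed against 0CUG strain 2 (log2 0.30 ± 0.1, adjusted p = 0.122; 3.78%), and the pooled test called it only when 0CUG strain 1 L4 replicate 3 was left out (adjusted p = 0.0199). The estimates of the other 12 genes lay between -0.19 (ND2) and 0.16 (ND6), with SEs of 0.0690 to 0.107. Beside this, 6 of 6 yolk genes fell, 0 of 10 muscle markers were called, and 5 of 14 genes of mitochondrial DNA maintenance and expression rose while 1 fell. Among these atfs-1, which encodes a regulator of the mitochondrial unfolded protein response, rose to 70.1 ± 13.5 CPM in 123CUG, against 58.7 ± 8.11 CPM in 0CUG (log2 0.28 ± 0.0846, adjusted p = 0.0289), and mtss-1, the single-stranded DNA binding protein of mitochondria, to 116 ± 12.8 CPM, against 99.0 ± 8.02 CPM (0.00932).

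In 2-day adults 1 mRNA fell and both rRNAs rose in 123CUG against 0CUG, where 5.74% of 14070 genes rose and 4.33% fell. CYTB stood at 1599.5, 1449 and 1510.3 CPM in 123CUG strain 1, 1496, 1782 and 1831 CPM in 123CUG strain 2, 1895, 2059.7 and 2040.2 CPM in 0CUG strain 1 and 1961, 1949 and 1955 CPM in 0CUG strain 2. All 6 libraries of 123CUG were lower than all 6 of 0CUG, with 1611 ± 159.8 against 1977 ± 61.7 CPM (SD, n = 6 each; log2 -0.29 ± 0.0783, adjusted p = 0.0201). Of all genes 27.6% were called in 123CUG strain 1 against 0CUG strain 1, 15.3% against 0CUG strain 2, and 13.9% and 20.3% in 123CUG strain 2 against 0CUG strain 1 and 0CUG strain 2. The CYTB estimate was negative in all 4 pairs: -0.41 and -0.35 for 123CUG strain 1 (adjusted p = 0.00944 and 0.039), and -0.23 and -0.18 for 123CUG strain 2 (0.181 and 0.283). The call was lost without 123CUG strain 1 replicate 2 (0.0716) or replicate 3 (0.0525), or without 123CUG strain 2 replicate 1 (0.061), and was kept without the pair lowest in nuclear rRNA (log2 -0.30, 0.0354). The mRNAs nearest to the threshold, COX2 (log2 0.26 ± 0.0857, adjusted p = 0.0652) and COX3 (log2 0.22 ± 0.0802, adjusted p = 0.0926), had positive estimates and did not pass; COX2 passed without 123CUG strain 2 replicate 1 (0.0378) or 0CUG strain 1 replicate 2 (0.0429), and DESeq2 called both COX2 (0.0261) and COX3 (0.0354).

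The rise of the rRNAs was not shared by the strains. MTCE.33 averaged 73.7 ± 37.6 CPM in 123CUG and 49.8 ± 16.3 CPM in 0CUG (log2 0.47 ± 0.0921, adjusted p = 0.00206), and the groups overlapped. Its estimate was 1.58 for 123CUG strain 1 against 0CUG strain 1, 0.77 against 0CUG strain 2, 0.16 for 123CUG strain 2 against 0CUG strain 1 and -0.65 against 0CUG strain 2 (adjusted p = 4.34e-08, 0.000305, 0.488 and 0.00179). Both directions were therefore called, depending on the pair of strains. Between strains of 1 construct MTCE.33 differed as well, in 123CUG strain 1 over 123CUG strain 2 (log2 1.42 ± 0.132, adjusted p = 3.05e-07; 5.39% of all genes called) and in 0CUG strain 1 over 0CUG strain 2 (log2 -0.81 ± 0.131, adjusted p = 5.76e-05; 44.6%). MTCE.7 did likewise, with 0.93, 0.63, -0.09 and -0.38 in the same order, and its pooled rise (log2 0.27 ± 0.0824, adjusted p = 0.0376) was lost in 7 of 12 fits without 1 library (0.0515 to 0.124: any library of 123CUG strain 1, 123CUG strain 2 replicate 2, 0CUG strain 1 replicates 1 and 3, or 0CUG strain 2 replicate 1) and without the pair lowest in nuclear rRNA (0.114). It was also lost with RLE scaling (0.0602), without a filter on low counts (0.0517) and with all 24 transgenic libraries in 1 fit (0.06). ND5 rose in 123CUG strain 2 against 0CUG strain 2 among the adults too (log2 0.42 ± 0.144, adjusted p = 0.0439). Without the pair lowest in nuclear rRNA ND3 rose in 123CUG (0.40, adjusted p = 0.0168), in a fit where 3.46% of all genes rose, against log2 0.42 ± 0.246, adjusted p = 0.375 with the pair; without a filter on low counts it was called with the pair too (5.85e-05). The difference of the 123CUG effect between adults and L4 animals passed for MTCE.33 among the 14 genes (log2 0.53 ± 0.144, adjusted p = 0.0239), where 5.93% of 17248 genes passed, and was lost in 15 of 24 fits without 1 library (adjusted p 0.0563 to 0.173). These were the fits without any adult library other than 123CUG strain 2 replicate 1 and 0CUG strain 1 replicate 2, or without L4 replicate 2 of 123CUG strain 1, replicates 1 and 2 of 123CUG strain 2, replicate 3 of 0CUG strain 1 or replicate 1 of 0CUG strain 2. In the nuclear lists for the same adults, 2 of 7 complex IV and 2 of 10 ATP synthase subunits rose, and 1 of 14 of complex I, 0 of 7 of complex III and 0 of 4 of complex II; none fell. In 123CUG strain 2 against 0CUG strain 1 no complex IV or ATP synthase subunit was called. The complex IV gene cox-7C reached 229 ± 36.7 CPM in 123CUG, against 179 ± 24.4 CPM in 0CUG (0.00877). Muscle markers gave 3 rises and 1 fall of 10 and oocyte markers 3 falls of 10.

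Among the transgenic adults ND6, ND4L, ND2 and ND3, all subunits of complex I, varied more between libraries of a group than the other mRNAs did. Their largest coefficient of variation within a group was 103%, 141%, 86.8% and 46.5%, in this order, each in a group of transgenic adults, and that of the other 8 mRNAs was at most 22.7% (ND5). In 0CUG strain 1 adults ND6 read 67.3, 279 and 37.1 CPM, while the median coefficient of variation of ND6 over the 12 groups of the series was 14.9%. ND4L read 1.84, 12.6 and 0 CPM in the same libraries, where 0 of 29560191 reads fell on it in replicate 3. The second library was high and the others low in both genes. The pair of libraries lowest in nuclear rRNA was highest in all 4 genes. ND6 stood at 337 CPM in 123CUG strain 2 replicate 2 and 279 CPM in 0CUG strain 1 replicate 2, against 16.2 to 139 CPM in the other 10. ND2 stood at 328 and 402 CPM, against 71.0 to 131 CPM. ND3 stood at 572 and 558 CPM, against 195 to 489.7 CPM, and ND4L at 17.4 and 12.6 CPM, against 0 to 9.79 CPM. It was also highest in ND1 (848 and 949 CPM, against at most 823 CPM) and ND4 (593 and 652 CPM, against at most 576 CPM), by smaller margins. In contrast COX1 in the pair (3830.0 and 3653 CPM) lay within the range of the other 10 libraries, and CYTB stood at 1782 and 2059.7 CPM, against 1449 to 2040.2 CPM. ND6 and ND4L were also low in 0CUG strain 2 replicate 3, at 16.2 and 0.107 CPM, a library whose nuclear rRNA (1.49%) was within the range of the other adults, and whose ATP6 (1953 CPM) lay beside the 2002 and 1892 CPM of its group. These 4 genes were singled out after their values were seen, and whether nuclear rRNA content has a part in them was not tested. The CUG estimates of ND6 (log2 0.76 ± 0.615, adjusted p = 0.553) and ND4L (log2 1.13 ± 0.962, adjusted p = 0.576) carry this spread and did not pass, although both were called without a filter on low counts (1.25e-16 and 1.83e-07).

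**Figure D5:**
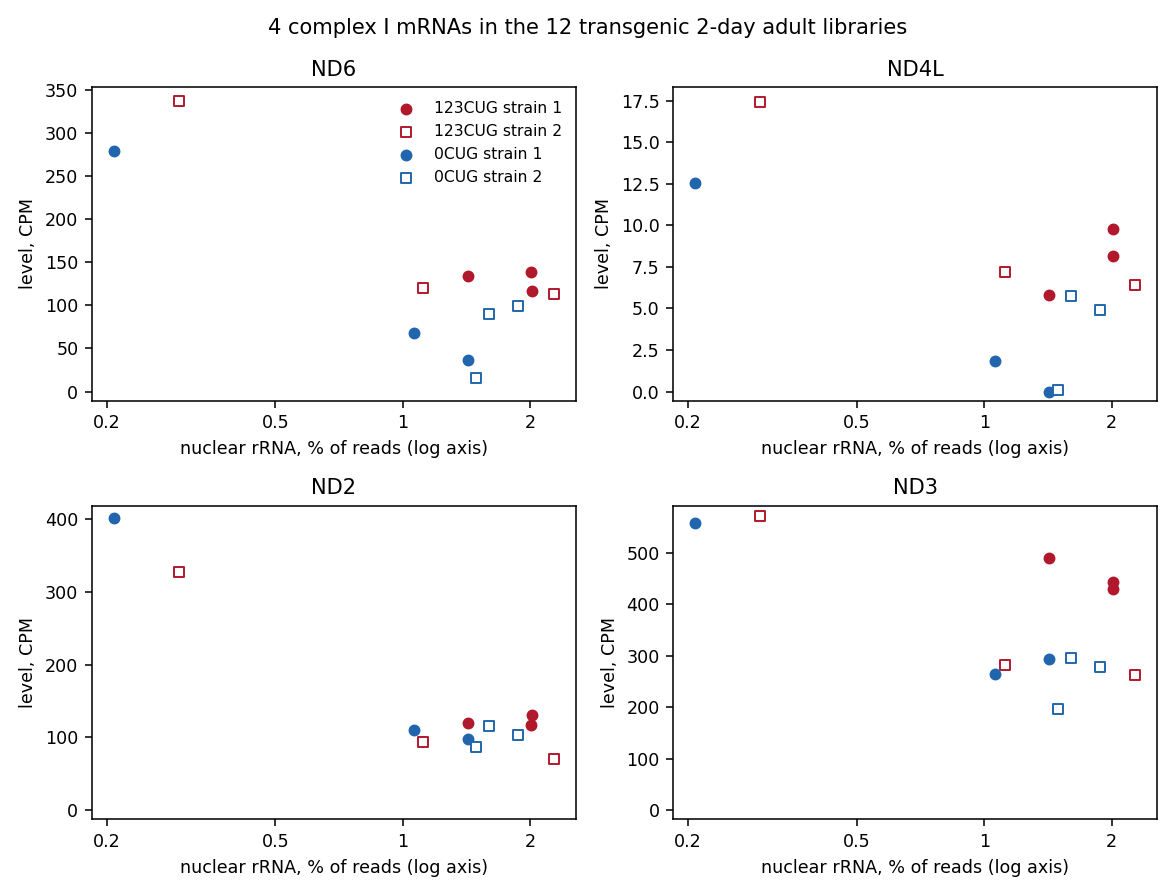
Level of 4 complex I mRNAs (CPM) in the 12 transgenic 2-day adult libraries against the share of reads on nuclear rRNA (%, log axis). The pair of libraries under 0.5% nuclear rRNA is highest in all 4 panels, and 0CUG libraries near 1.5% are lowest for ND6 and ND4L.

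In the mbl-1 mutants labelled L4 both rRNAs and 4 complex I transcripts were called higher than in N2. Of the 14 genes 6 rose and 0 fell in mbl-1 against N2, in a comparison where 29.7% of 13264 genes rose and 21.7% fell, so a large part of the transcriptome was called. Among the mRNAs 4 of 12 rose, close to the share of all genes that rose. That number is therefore not read as a result about the complex I transcripts. MTCE.33 read 48.7, 41.4 and 51.2 CPM in mbl-1 libraries and 30.4, 28.6 and 31.2 CPM in N2 libraries (log2 0.70 ± 0.105, adjusted p = 7.33e-05). MTCE.7 read 42.3, 35.7 and 47.7 CPM in mbl-1 libraries and 30.4, 26.9 and 31.5 CPM in N2 libraries (log2 0.56 ± 0.116, adjusted p = 0.00124), and every mbl-1 library was above every N2 library for both rRNAs. ND3 read 286, 317 and 409 CPM in mbl-1 libraries and 252, 217 and 256 CPM in N2 libraries (log2 0.53 ± 0.123, adjusted p = 0.00249), again without overlap. These 3 kept their calls whichever library was left out. ND2 read 80.3, 108 and 121 CPM in mbl-1 libraries and 82.4, 80.9 and 87.6 CPM in N2 libraries (log2 0.36 ± 0.119, adjusted p = 0.0203), and ND6 read 137, 121 and 163 CPM in mbl-1 libraries and 124, 104 and 117 CPM in N2 libraries (log2 0.34 ± 0.112, adjusted p = 0.02); the groups overlapped in both. ND2 missed without mbl-1 replicate 3 (0.0766) or without N2 replicate 1 (0.0686) or 2 (0.0785), and ND6 without mbl-1 replicate 3 (0.056) or N2 replicate 2 (0.128). ND5, the largest mitochondrially encoded subunit of complex I, was closest to the threshold (log2 0.27 ± 0.108, adjusted p = 0.0482) and missed it in 4 of the 6 fits without 1 library: without mbl-1 replicate 1 (0.156) or 3 (0.0679), and without N2 replicate 2 (0.253) or 3 (0.117). It missed with DESeq2 (0.0583) and RLE scaling (0.0826) as well. CYTB (log2 -0.00 ± 0.110, adjusted p = 0.977), ND1 (0.07) and ND4 (0.07) stayed near 0, and ATP6, COX1, COX2 and COX3 lay between 0.14 and 0.19 without passing. ND4L stood at 0.968, 1.02 and 1.22 CPM in mbl-1 worms and 0.899, 0.691 and 0.485 CPM in N2 worms and missed (log2 0.67 ± 0.344, adjusted p = 0.114). A single fit of all 12 libraries called none of the 14 genes. The share of all genes that it called for this comparison is not given here. Between the labels the same fit called 0% of 14027 genes within N2 and 0.563% within mbl-1. The loss is therefore not read as particular to the mitochondrial genes.

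The nuclear partners in the same libraries rose in 1 of 14 cases for complex I, 4 of 7 for complex III, 5 of 7 for complex IV and 5 of 10 for the ATP synthase, and none fell. The largest of these rises was that of asg-2, an ATP synthase subunit gene, with 152 ± 26.2 CPM in mbl-1 worms and 89.2 ± 6.76 CPM in N2 worms (log2 0.83 ± 0.110, adjusted p = 2.62e-05). Of the genes for maintenance and expression of mitochondrial DNA 4 of 13 fell and 0 rose, among them hmg-5 (93.9 ± 7.07 CPM in mbl-1 worms and 119.8 ± 14.6 CPM in N2 worms, adjusted p = 0.0319) and mtss-1 (87 ± 5.23 and 111 ± 11.5 CPM, 0.0221), whereas rpom-1 stood at 45.7 ± 2.12 CPM in mbl-1 worms and 49.7 ± 2.28 CPM in N2 worms (0.599). Mitochondrial ribosomal protein genes gave 3 rises and 5 falls of 69. Markers of tissues moved with these changes. Muscle markers rose in 10 of 10 cases and summed to 3941 to 5605 CPM in mbl-1 against 1456 to 1601 CPM in N2. Intestine markers rose in 5 of 6 cases and neuron markers in 6 of 9, and none of either fell. Yolk genes gave 1 fall of 6 and no rise. Oocyte markers fell in 9 of 10 and summed to 3159.8 to 5042 CPM in mbl-1 against 5401 to 7431 CPM in N2; no marker was at 0, and the part of tissue makeup was not tested.

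In the libraries labelled 2-day adult no gene of the worm passed: the edgeR test of mbl-1 against N2 gave 0% of 13286 genes, with 695 at an unadjusted p under 0.05, 0 of them mitochondrial, and DESeq2 called 57 rises and 75 falls, 0 of them mitochondrial. All 12 mRNAs had negative estimates, between -0.37 (CYTB) and -0.03, and both rRNAs positive ones. MTCE.33 read 64.8, 55.2 and 29.8 CPM in mbl-1 libraries and 29.6, 32.0 and 40.4 CPM in N2 libraries (log2 0.58 ± 0.307, adjusted p = 0.91). MTCE.7 read 46.5, 45.4 and 26.8 CPM in mbl-1 libraries and 26.3, 33.0 and 35.6 CPM in N2 libraries (log2 0.35 ± 0.258, adjusted p = 0.91). In both rRNAs the third mbl-1 library was the lowest of mbl-1 and the third N2 library the highest of N2. Nuclear rRNA took 2.00%, 1.69% and 0.817% of reads in these mbl-1 libraries and 0.817%, 0.987% and 1.45% in those of N2. Under the label L4 it took 1.18% to 1.46% in mbl-1 and 0.920% to 1.42% in N2, ranges that overlap. Its part in the mitochondrial rRNA values was not tested. Without the third libraries, an alternative with 2 libraries a group, both rRNAs rose. MTCE.33 gave log2 1.02 (adjusted p = 0.00469) and MTCE.7 log2 0.69 (adjusted p = 0.0213). No mRNA passed in this fit, where 21.7% of all genes rose and 10.7% fell. Leaving out the lowest mbl-1 and the highest N2 library widens the rRNA difference by itself, so these calls are no separate evidence of a rise. Muscle markers summed to 4168 to 7876 CPM in mbl-1 worms and 1843 to 4899 CPM in N2 worms, and oocyte markers to 1972 to 6621 CPM in mbl-1 worms and 2639.8 to 6983 CPM in N2 worms, ranges that overlap. CYTB read 1163, 1565 and 1415 CPM in mbl-1 libraries and 1942, 2007 and 1554 CPM in N2 libraries (log2 -0.37 ± 0.167, adjusted p = 0.91). The difference of the mbl-1 effect between the labels was called for none of the 14 genes and for 0.00713% of 14027 genes; DESeq2 also called 0 of the 14, and 3 had an unadjusted p under 0.05. For ND2 the difference was log2 -0.69 ± 0.226, adjusted p = 0.352. Between the labels, 2-day adult over L4, 0 of 14 genes passed within N2 (0% of all genes; 0 of 14 at an unadjusted p under 0.05) and 0 of 14 within mbl-1 (0.563%; 5 of 14). Within mbl-1 the 12 mRNA estimates were all negative, with a median of -0.31, and ND2 read 70.8, 70.2 and 68.5 CPM in 2-day adults and 80.3, 108 and 121 CPM in libraries labelled L4 (log2 -0.57 ± 0.160, adjusted p = 0.131). Within N2 the estimates were divided, 6 positive and 6 negative.

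The authors' deposited tables, which compare groups of 3 libraries one pair at a time, call overlapping sets of mitochondrial genes. The share of all genes that the authors called in each pair is not given here. The counts below are therefore not read as a result about the mitochondrial genes. For mbl-1 against N2 the authors' deposited table has 4 rises among mitochondrial genes under the label L4 (MTCE.33, MTCE.7, ND3 and ND6) and 0 calls among 2-day adults. For the adult strains it has 3 rises and 1 fall for 123CUG strain 1 against 0CUG strain 1, and 5 rises and 1 fall against 0CUG strain 2, with CYTB, COX3, MTCE.33 and MTCE.7 called in both of the authors' deposited tables. For 123CUG strain 2 adults the authors' deposited tables have 0 calls against 0CUG strain 1, and 1 rise (ND5) and 1 fall (MTCE.33) against 0CUG strain 2. At L4 the authors' deposited tables have 0 calls for 123CUG strain 1 against either 0CUG strain, 1 rise (ND5) and 1 fall (ND2) for 123CUG strain 2 against 0CUG strain 1, and 1 rise (ND5) against 0CUG strain 2.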

How the data were processed

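RNA-seq libraries of whole worms were analysed from 10 deposited tables of raw read counts by gene, with 6 libraries in each. Per the submitters' processing notes HISAT2, DESeq2 and build WBcel235 were used; no source used here gives versions, the counting tool, library selection or strandedness. The deposited tables also hold gene lengths, and log2 fold changes with p-values made by the authors, which are cited only where named. Tables were joined by gene identifier over 36 libraries: all 465954 counts that recur between tables were identical. A further 500 unnamed loci, with 0.0201% to 0.0643% of reads, were left out. Symbols of mitochondrial protein-coding genes come from RefSeq (same assembly), by position; rRNA and tRNA genes keep their identifiers. RefSeq lists 36 mitochondrial genes, of which 29 occur in the tables; the rest were not analysed here.

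Tests used edgeR 4.0.16 in R 4.3.3 (TMM, filterByExpr, robust quasi-likelihood F test, Benjamini-Hochberg over all genes tested) on the libraries of each comparison, both strains of a construct averaged; strain pairs are contrasts within those fits. Fold changes come from each fit's own scaling, levels from TMM scaling over 36 libraries. The mean log2 read share was compared with exact permutation tests, and between stages with 100000 resamples. Alternatives were DESeq2 1.42.0, RLE scaling, no filter on low counts, library sizes without mitochondrial and rRNA genes, a replicate block, larger fits and leaving out libraries. The fits were tested on simulated counts with known changes. Replicates of a group differed by more than sampling noise. The members, gene lists and tests were chosen with earlier results of these data known. The genes named are all mitochondrial mRNAs and rRNAs, and, from nuclear lists, called genes with the largest rise or fall among those at 5 CPM or more, plus regulators of mitochondrial DNA where a result turns on them.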

Additional observations from a re-analysis of the deposited data

Results flagged for a closer look

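In 5 results an effect on a mitochondrial rRNA differed between groups by an interaction test. The pooled 123CUG effect on MTCE.33 was larger in 2-day adults than at L4, by log2 0.53. This call was lost in 15 of 24 fits without 1 library. In adults the pairs of strains gave called differences of MTCE.33 in both directions, so it is not read as an effect shared by the 123CUG strains. The change with stage differed between the strains of a construct: for 123CUG strain 1 minus strain 2 by 0.78 (MTCE.7) and 1.20 (MTCE.33), and for 0CUG strain 1 minus strain 2 by -0.60 (MTCE.7) and -1.20 (MTCE.33). The adjusted p values were 0.0239 for the 123CUG effect, and 0.0134, 0.000985, 0.017 and 0.000117 for the strains in this order (edgeR, Benjamini-Hochberg). The 12 mRNAs gave no such difference past the threshold in these 3 tests. Of all 17248 genes, 5.93% passed for the 123CUG effect, 3.78% between the 123CUG strains and 20.1% between the 0CUG strains.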

How the results depend on the processing

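Among counts of called mitochondrial genes, in 123CUG against 0CUG adults rises were 4 with DESeq2, 1 with RLE scaling, 4 without a filter, 1 with all 24 transgenic libraries in 1 fit and 1 to 3 without single libraries, against 2; falls were 0 to 1 without single libraries, against 1. The difference of the 123CUG effect between stages gave 3 rises without a filter and 0 to 1 without single libraries, against 1. For mbl-1 against N2 under the label L4 rises were 0 with 12 libraries in 1 fit and 3 to 8 without single libraries, against 6, and among 2-day adults 2 without the third libraries, against 0. 123CUG against 0CUG at L4 gave 0 to 1 rises without single libraries, against 0. Falls in transgenic adults against L4 were 10 without the pair lowest in nuclear rRNA, against 6. Within mbl-1 DESeq2 called 1 fall between labels, against 0. The cause was not tested. Of all 14070 genes in 123CUG against 0CUG adults, 807 rose in the main fit, 940 with DESeq2 and 686 with RLE scaling. Counts over all genes are not given here for most other alternatives. The changes in count are therefore not read as particular to the mitochondrial genes. Log2 differences of the read share, all uncalled, changed sign without single libraries for 123CUG against 0CUG at L4 (-0.0874 to 0.00459) and in adults (-0.0335 to 0.0649). The replicate numbers do not pair the libraries; with them as a block the share difference between stages stayed at -0.31, where a sign-flip test of 3 differences cannot give a p under 0.25, and counts of mitochondrial calls stayed within 1.5 times; the block lost ND5 in mbl-1 against N2 under the label L4 (0.0583) and called ND3 between stages (0.0288). Of 706 alternative values for 33 named gene results, 609 kept direction and call, 97 changed the call and 0 reversed. The pair lowest in nuclear rRNA and the third mbl-1 and N2 2-day adult libraries were picked out after seeing the data. The depth limits tRNA values.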
